A study of Homo sapiens with 4 samples.

Results

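The FOS and JUN genes encode the core subunits of activator protein 1 (AP-1), a family of transcription factors. The set holds 7 genes, FOS, FOSB, FOSL1, FOSL2, JUN, JUNB and JUND, chosen by symbol among the 19775 genes that had at least 1 probe set annotated to them alone. A probe set is a group of short oligonucleotides on the array that reads 1 transcript region. The 7 genes had 17 such probe sets of 41097 on the array, and 0 probe sets named a member together with another gene. FOSL2 had 5, JUN 4 and JUND 4, while FOS, FOSB, FOSL1 and JUNB had 1 each.

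AP-1 binds DNA as a pair of proteins joined through a leucine zipper. JUN proteins can pair with themselves or with a FOS protein, whereas FOS proteins need a JUN partner. FOS, FOSB, JUN and JUNB are classical immediate early genes, whose RNA appears briefly after a growth signal or stress. FOSL1, which encodes FRA-1, is a later and more stable output of RAS and MAP kinase signalling and is often abundant in carcinoma cells.

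RNA was measured on 4 Affymetrix arrays, with 1 array for each condition, in Panc1, a human pancreatic cancer cell line. The conditions were untreated cells, and cells given romidepsin, tamoxifen or romidepsin plus tamoxifen for 24 hours. Romidepsin blocks histone deacetylases, and tamoxifen acts on estrogen receptors. Doses are not given in the sources used here, and no array was replicated, so no test between conditions was made and no p-value is given. All values come from 1 cell line, and precision is limited by how few arrays there are.

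Values are MAS5 signals on a linear scale, scaled for each array by the authors. A floor of 66.4, the median signal over non-control probe sets, replaced every lower value before folds were taken, so a fold against it is a minimum and is given with the words "at least". Genes count as measured in a comparison where either array exceeded the floor (all 4 arrays for departures from additivity), and "rose" or "fell" means a difference of at least 2-fold between arrays. Differences are given on the log2 scale of floored signals. As a technical yardstick, the log2 folds of a gene's 2 brightest probe sets differed by a median of 0.22 to 0.29 in the 5 comparisons, and by less than 0.69 to 0.93 in 90% of genes. This yardstick holds no variation between cultures. Probe sets bind their targets with different strength, so levels were compared between arrays and never between genes.

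The arrays had between 12159 and 13150 genes above the floor. The 3′ to 5′ actin ratio, which rises as RNA degrades, was 1.18 to 1.39 on the untreated, romidepsin and tamoxifen arrays and 1.73 on the combination array. Relative to the untreated array, spike-in controls stood at 0.78 with tamoxifen and 0.82 with both drugs. Of the markers of the cell line, the keratins KRT8 and KRT18 and vimentin (VIM) were far above the floor on all arrays (KRT8, the dimmest, at 4153 or more), and KRT19 was below the floor on all 4. KRT7 was at 780 in untreated cells and 202 with both drugs. KRT8, KRT18 and KRT7 fell with both drugs over untreated cells (2.20-fold, 2.24-fold and 3.86-fold). EPCAM rose at least 5.96-fold with romidepsin, from below the floor. Of the leukocyte markers, PTPRC and CD3E were below the floor on all arrays and ITGAM was at 131 with romidepsin and 105 with both drugs. The endothelial marker CDH5 and the acinar marker CPA1 were below the floor on all arrays, while PECAM1 lay between 110 and 136 and VWF was above the floor only with romidepsin, at 98.3, and with both drugs, at 73.6. What these markers and controls contribute to the results was not tested.

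Promoter sequences are shown for 3 genes whose signal was higher with romidepsin (FOS, FOSB and JUND) and for JUN, whose signal was not. RefSeq windows on build GRCh38.p14 were found for 6 of the 7 genes; none was found for FOSL1. Each line gives the 250 bases before the annotated start of the gene, 5′ to 3′ on the gene's own strand. Capitals mark matches, on either strand, to the letters of the CRE (TGACGTCA), which binds CREB and ATF proteins, of the TRE (TGAGTCA), the AP-1 site, of the related site TGACATCA, of the TATA box (TATAAA), and of the GC box (GGGCGG).
FOS (chr14:75278578-75278827, plus strand): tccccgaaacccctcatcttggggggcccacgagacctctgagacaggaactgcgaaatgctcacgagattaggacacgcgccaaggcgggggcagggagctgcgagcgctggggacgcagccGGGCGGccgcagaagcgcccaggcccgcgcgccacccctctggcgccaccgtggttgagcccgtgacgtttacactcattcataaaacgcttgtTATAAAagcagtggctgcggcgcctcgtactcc
FOSB (chr19:45467746-45467995, plus strand): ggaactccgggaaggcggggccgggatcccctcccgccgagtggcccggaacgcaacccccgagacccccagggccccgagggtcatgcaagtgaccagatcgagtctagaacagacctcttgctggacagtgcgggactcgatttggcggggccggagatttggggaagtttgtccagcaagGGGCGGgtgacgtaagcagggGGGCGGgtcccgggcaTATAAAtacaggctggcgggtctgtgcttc
JUND (chr19:18281623-18281872, minus strand): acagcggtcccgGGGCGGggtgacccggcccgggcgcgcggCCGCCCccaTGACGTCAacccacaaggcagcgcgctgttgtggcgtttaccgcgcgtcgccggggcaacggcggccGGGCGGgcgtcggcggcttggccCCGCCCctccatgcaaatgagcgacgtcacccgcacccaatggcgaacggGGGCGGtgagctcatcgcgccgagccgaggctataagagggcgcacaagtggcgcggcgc
JUN (chr1:58784048-58784297, minus strand): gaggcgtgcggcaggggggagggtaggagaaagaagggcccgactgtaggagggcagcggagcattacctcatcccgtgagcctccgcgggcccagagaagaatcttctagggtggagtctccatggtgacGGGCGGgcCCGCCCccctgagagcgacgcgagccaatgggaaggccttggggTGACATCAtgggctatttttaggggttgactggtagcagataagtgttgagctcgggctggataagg

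Of the 6 genes, FOS, FOSB and JUNB each held a TATA box, which began 33, 30 and 31 bases before the start, and such letters stood in 12.0% of the 27305 promoter windows of 300 bases (250 before and 50 after a start). JUN, FOSL2 and JUND held no match to it in this window. JUND held the CRE, 200 bases before its start and present in 1.98% of windows, and 6 GC boxes, a motif present in 44.6% of windows; the last of these begins 45 bases after the start, outside the bases printed. JUN held the site TGACATCA, 67 bases before its start and present in 2.71% of windows. FOSL2 held the TRE on the opposite strand 5 bases after its start, which is outside the bases printed and was found in 4.92% of windows. The CArG box, through which serum response factor acts, was in 0 of the 6 windows and in 1.29% of all. In JUND, JUN and the others no 2 matches of different motifs overlapped. GC content of the 250 bases ran from 62.0% in JUN to 74.8% in JUND, against a median of 58.0% over all windows. A match describes the letters only and shows no binding. Variants of these letters and sites outside the windows were not searched for. The absence of a match therefore does not mean that a gene lacks such a site.

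**Figure D1:**
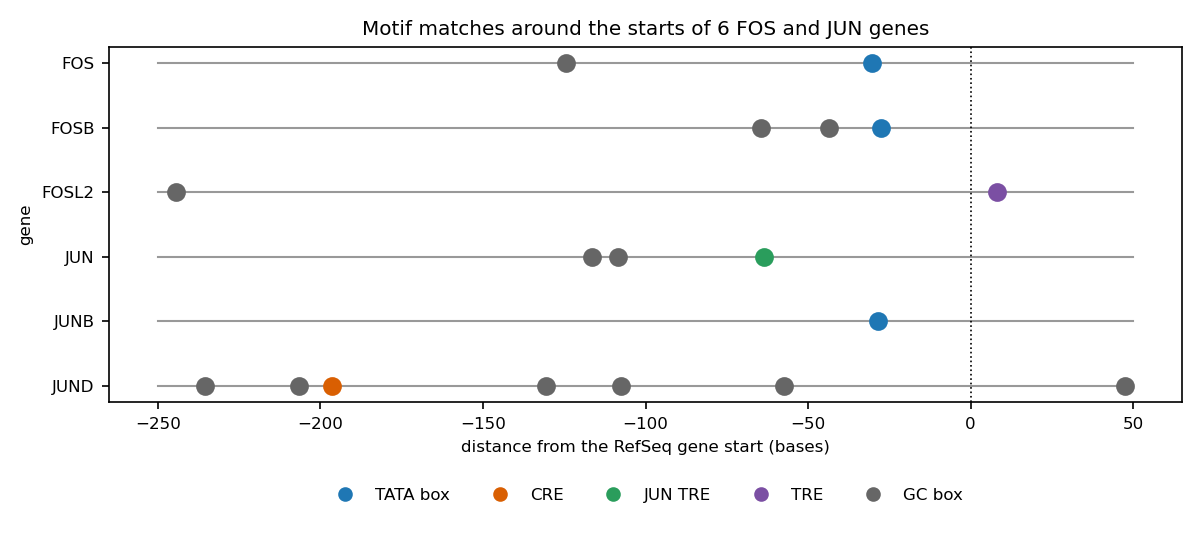
Positions of motif matches (coloured points, at the middle of each match) from 250 bases before to 50 bases after the RefSeq start of 6 genes, in bases. FOS, FOSB and JUNB have a TATA box close to 30 bases before the start, and JUND has 6 GC boxes and the CRE.

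In 6 of the 7 genes the romidepsin and combination arrays lay both above or both below the other pair, by amounts that ranged from small for JUNB to the calls of FOS and FOSL1, and the direction differed by gene. FOS and FOSB were high on the romidepsin and combination arrays, as was JUND to a lesser extent. FOSL1 was low on both, and so was FOSL2 by its brightest probe set. JUNB was slightly higher on both, and JUN was lowest with both drugs together. In bulk RNA, fewer cells with a transcript and less of it in each cell cannot be told apart.

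**Figure D2:**
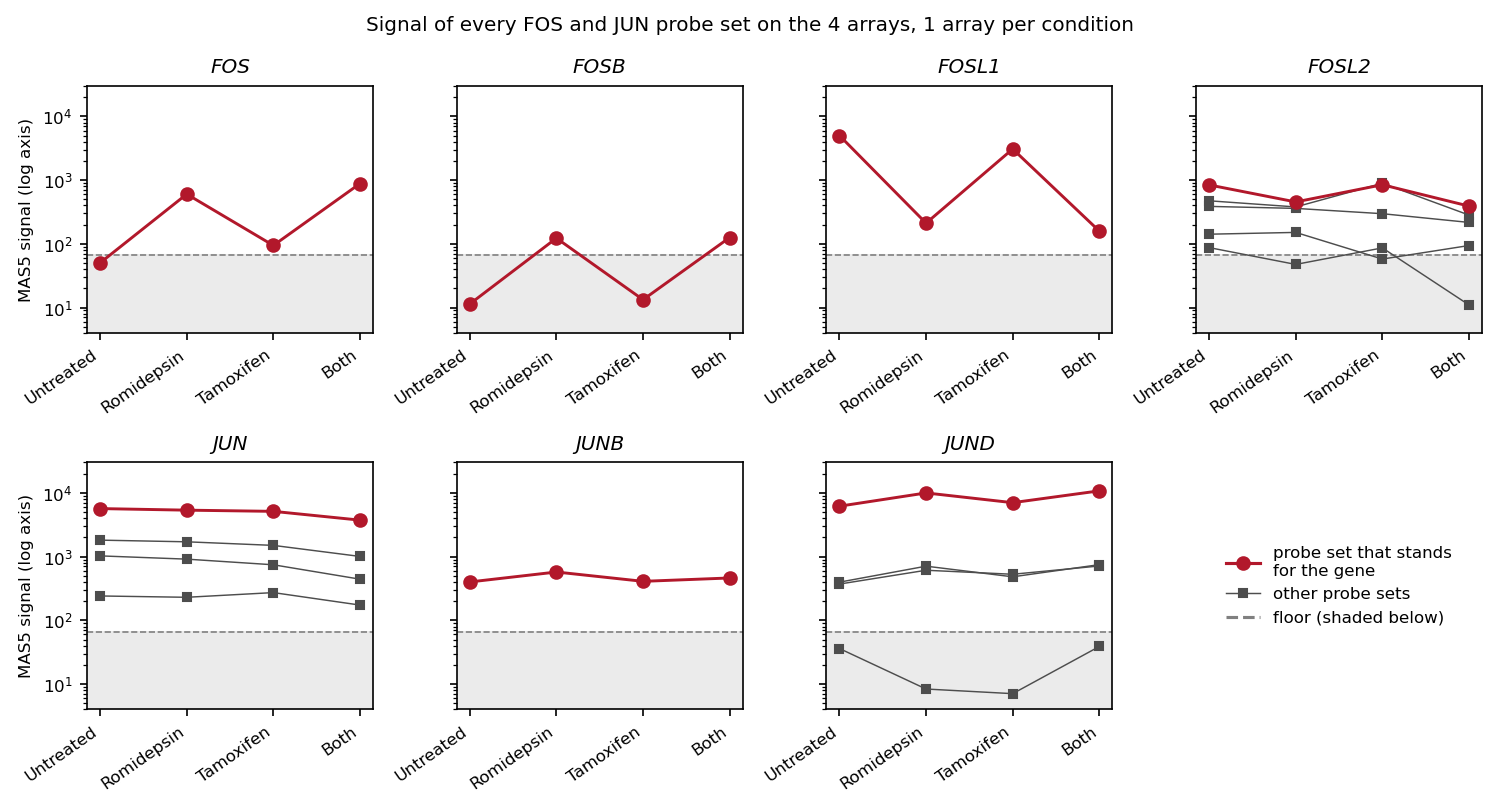
MAS5 signal (log axis) of each of the 17 probe sets on the 4 arrays, by gene; lines join the values of 1 probe set, red marks the probe set that stands for the gene, and the shaded zone lies below the floor of 66.4. FOSL1 drops from 5010.05 to 211 with romidepsin, while FOS goes from below the floor to 603.

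FOSL1 lost most of its signal with romidepsin. Its signal was 5010.05 without treatment, 211 with romidepsin, 3081 with tamoxifen and 158 with both drugs. The romidepsin and combination arrays were low and the other pair high. FOSL1 fell 23.7-fold with romidepsin alone (log2 fold -4.57), 31.6-fold with both drugs over untreated cells (-4.98) and 19.5-fold with both drugs over tamoxifen (-4.28). Ranked from the lowest fold, FOSL1 was number 2 of 13619 genes measured, 3 of 13802 and 8 of 13893 in these comparisons. Genes that dropped below the floor enter these ranks with minimum folds, whereas FOSL1 stayed above it on all 4 arrays. With tamoxifen alone FOSL1 was 1.63-fold lower (-0.70), and with tamoxifen added to romidepsin 1.33-fold lower (-0.41), both short of the 2-fold call. The order of its levels was untreated, tamoxifen, romidepsin and both drugs, and the last pair in that order differed by less than the 0.69 within which 90% of genes' probe sets agreed in that comparison. Had the effects of the drugs added on the log2 scale, the combination would have been 0.29 lower than it was, a departure short of 2-fold. FOSL1 was read by 1 probe set, so no other probe set of the gene could be compared with it.

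The genes most like FOSL1 over the 3 folds against untreated cells were taken among 11057 genes above the floor on all 4 arrays. The nearest was MYOF, the membrane repair protein myoferlin, at a Euclidean distance of 0.65 on the log2 scale. It went from 12349.5 (untreated) to 662 (romidepsin), 11141 (tamoxifen) and 380.0 (both drugs). PLAU, which encodes urokinase, followed at a distance of 1.30, and the membrane glycoprotein EMP1 at 1.37. For tamoxifen alone, the log2 fold was -0.15 for MYOF, -0.11 for PLAU and -0.29 for EMP1, against -0.70 for FOSL1. The likeness rests on 4 arrays.

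FOSL2, which encodes FRA-2, the closest relative of FRA-1, was lower with romidepsin by its brightest probe set. That probe set gave 841 in untreated cells, 455 with romidepsin, 846 with tamoxifen and 391 with both drugs. Again the romidepsin and combination arrays were the low pair. The difference was 1.85-fold with romidepsin alone (log2 fold -0.89), not a call, and FOSL2 fell 2.15-fold with both drugs over untreated cells (-1.10) and 2.16-fold over tamoxifen (-1.11). With romidepsin alone 3 of the other 4 probe sets gave log2 folds from -0.32 to 0.09, and the dimmest went from 87.3 to below the floor, at least 1.32-fold lower. In the combination all 5 were lower than in untreated cells, 4 of them with log2 folds from -1.10 to -0.59 and the dimmest, again below the floor, by at least 1.32-fold. The call of FOSL2 in the combination was lost when the median over its probe sets was taken (-0.74).

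The probe sets of FOSL2 went apart with tamoxifen alone. The second brightest gave 474 in untreated cells, 380 with romidepsin, 894 with tamoxifen and 283 with both drugs, which is 1.89-fold higher with tamoxifen. The third gave 387, 360.0, 297 and 217 in the same order. The fourth went from 142 in untreated cells to below the floor with tamoxifen, at least 2.13-fold lower, while the fifth stood at 87.3 and 86.4. No single statement on FOSL2 and tamoxifen can be drawn from these values.

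FOS, the prototype of the family, was below the floor in untreated cells and rose with romidepsin. Its signal was 50.3 without treatment, 603 with romidepsin, 94.4 with tamoxifen and 884 with both drugs. The romidepsin and combination arrays were high, and the other pair lay near the floor. The rise was at least 9.09-fold with romidepsin alone (log2 fold 3.18) and at least 13.3-fold with both drugs over untreated cells (3.74), and it was 9.37-fold with both drugs over tamoxifen (3.23), where both arrays were above the floor. Ranked from the highest fold over tamoxifen, FOS was number 126 of 13893 genes measured, where genes below the floor with tamoxifen enter with minimum folds. With tamoxifen alone FOS was at least 1.42-fold higher and in the combination 1.47-fold higher than with romidepsin, neither of which is a call.

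FOSB, a FOS relative that is induced with it, crossed the floor on the same arrays. The FOSB signal was 11.4 without treatment and 13.3 with tamoxifen, both below the floor, and 123 with romidepsin and 126 with both drugs. Its bounds, at least 1.85-fold with romidepsin and at least 1.89-fold with both drugs over untreated cells, stayed just under the call because its upper values lie close to the floor. With the floor at the 25th percentile FOSB was called higher in each of these comparisons, with a log2 fold of at least 2.67 and at least 2.70. It was not measured with tamoxifen alone, where both arrays were below the floor, and the romidepsin and combination signals differed by 1.02-fold.

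JUN, the partner on which most AP-1 pairs are built, hardly differed with romidepsin alone and was lowest with both drugs. Its brightest probe set gave 5675 in untreated cells, 5359.75 with romidepsin, 5134 with tamoxifen and 3738 with both drugs. The combination array was the lowest and the other 3 lay close together. With romidepsin alone the log2 folds of the 4 probe sets ran only from -0.17 to -0.07. In the combination over untreated cells all 4 were lower, from -1.21 to -0.47, and over romidepsin from -1.04 to -0.41. The brightest was 1.52-fold lower than untreated (-0.60), which is not a call, and 1 of the 4 probe sets passed 2-fold, from 1027 to 443. All 4 gave a departure from additivity below 0, from -0.58 to -0.38, short of 2-fold. The combination array also had the highest 3′ to 5′ ratio of actin, 1.73, while the ratio of GAPDH was 1.07 on both the combination and the untreated array. What RNA quality contributed to the JUN values was not tested.

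JUND, the most widely expressed JUN gene, was higher with romidepsin by every probe set above the floor, and short of the call. Its brightest probe set gave 6186 in untreated cells, 9987 with romidepsin, 7025 with tamoxifen and 10769 with both drugs. The romidepsin and combination arrays were the high pair. The difference was 1.61-fold with romidepsin (log2 fold 0.69) and 1.74-fold with both drugs (0.80). The next 2 probe sets gave log2 folds of 0.83 and 0.72 with romidepsin and 0.91 and 0.94 with both drugs, and the fourth was below the floor on all 4 arrays. With tamoxifen alone the 3 were between 0.18 and 0.51 higher.

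JUNB, a JUN protein that often opposes JUN in cell growth, differed little between arrays. The JUNB signal was 400.4 without treatment, 573 with romidepsin, 409 with tamoxifen and 462 with both drugs. Romidepsin alone was highest, 1.43-fold above untreated cells (log2 fold 0.52), and tamoxifen and untreated cells were nearly equal. Every comparison of JUNB was under the size within which the probe sets of 90% of genes agreed, as were those of JUND and JUN by their brightest probe sets. The JUNB sign for both drugs over untreated cells, 0.21 as deposited, turned to -0.09 with arrays centred on their medians.

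Counted against all genes, the shares of the family that were called lay near the background or rested on 1 more gene. With romidepsin over untreated cells 1 of 7 genes rose (FOS) and 1 fell (FOSL1), where 14.3% of the 13619 genes measured rose and 9.27% fell. With both drugs over untreated cells 1 of 7 rose (FOS) and 2 fell (FOSL1 and FOSL2), where 19.8% of 13802 genes rose and 14.4% fell. With both drugs over tamoxifen the same genes were called, 1 higher and 2 lower, where 14.8% of 13893 genes rose and 11.8% fell. The median log2 fold of the members was 0.52 with romidepsin, against 0.06 over all genes measured, and 0.21 with both drugs, against 0.09. The medians hide genes that differ in both directions by more than 3 log2 units.

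Tamoxifen called no member. With tamoxifen over untreated cells 0 of 6 measured genes rose or fell, where 3.7% of 13051 genes rose and 1.07% fell, and with tamoxifen added to romidepsin 0 of 7, where 4.07% of 13726 genes rose and 2.27% fell. The members' medians were 0.02 and -0.22, against 0.01 and -0.03 over all genes. The departure of the combination from additive log2 effects could be taken for 5 genes above the floor on all arrays. By the probe set that stands for each gene it ran from -0.38 for JUN to 0.29 for FOSL1. By that measure 0 of 5 passed 2-fold, where 0.886% of 11058 genes were above and 2.23% below. The probe sets of FOSL2 differed here. Its second brightest gave -1.34, which is 2.53-fold lower than additive, against -0.23 for the brightest and -0.35 for the third. These comparisons share arrays with one another and are not independent.

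**Figure D3:**
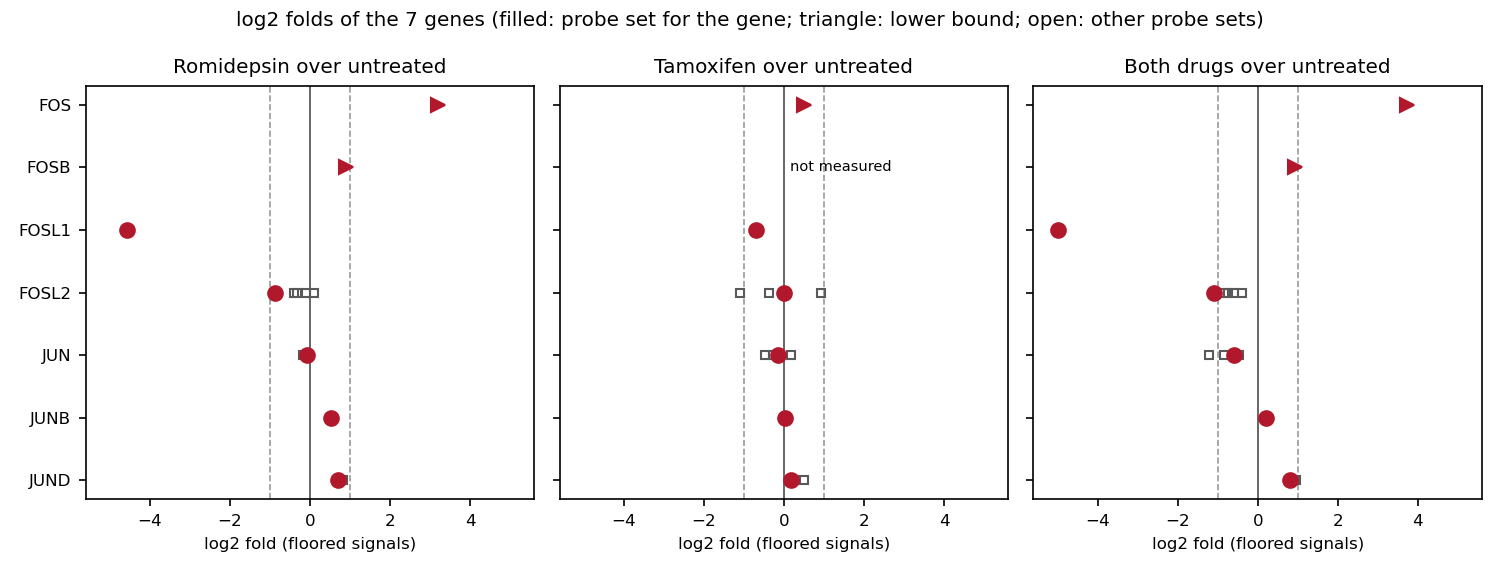
log2 folds over untreated cells of the 7 genes with romidepsin, tamoxifen and both drugs; filled marks show the probe set for the gene, triangles lower bounds, open squares the other probe sets, and dashed lines 2-fold. FOSL1 lies at -4.57 and -4.98 on the outer panels and FOS at 3.18 and 3.74 or more, while tamoxifen alone leaves all filled marks inside 2-fold.

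**Figure D4:**
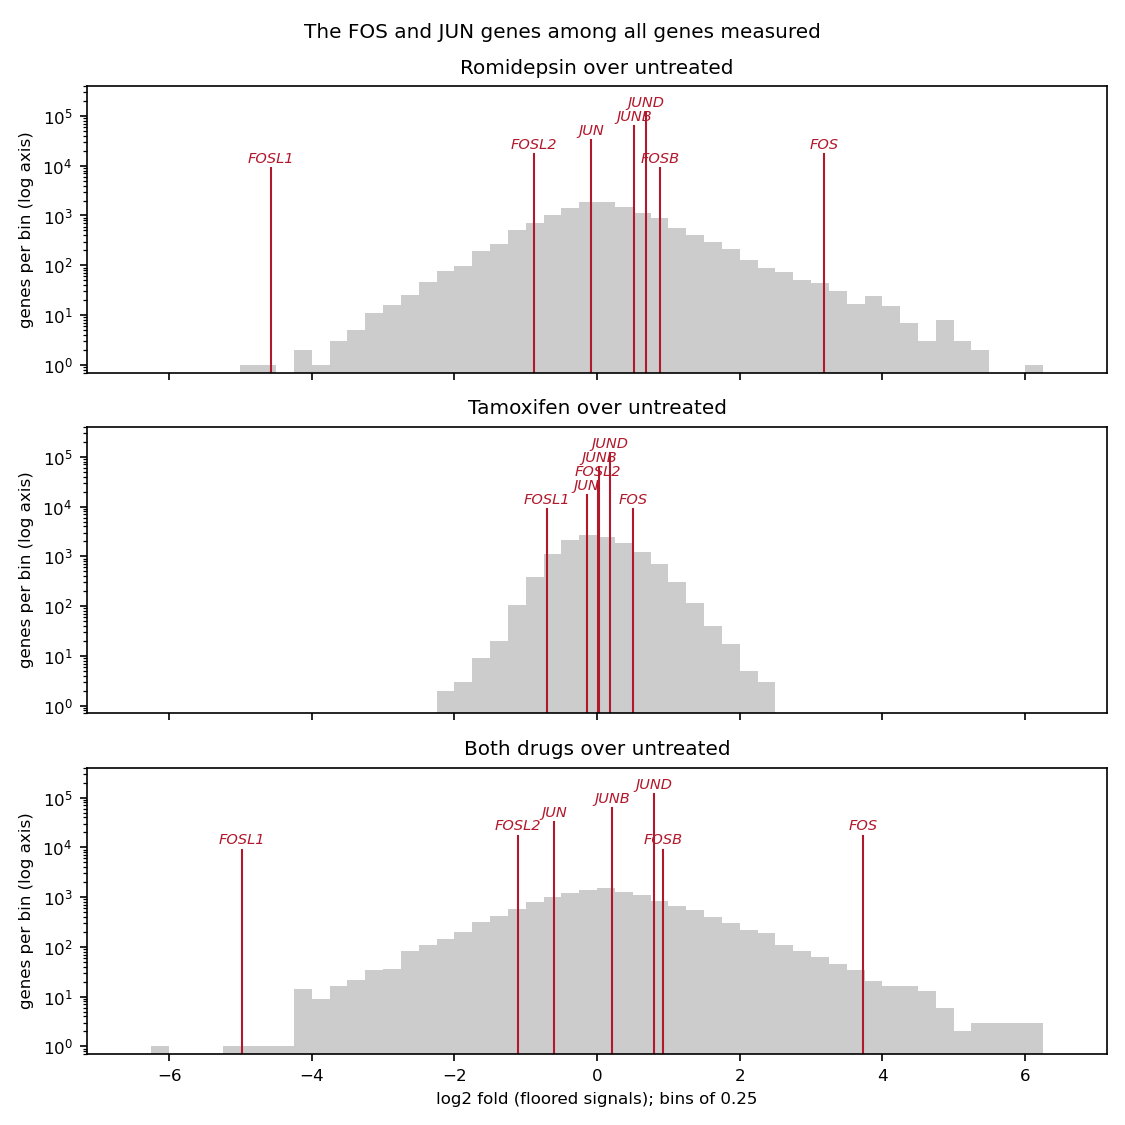
Number of genes (log axis) by log2 fold over untreated cells, in bins of 0.25, with the members as red lines. FOSL1 stands at the lower end of the romidepsin and combination panels, and FOS in the upper part of the distribution.

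By the same measure, the nearest gene to FOSL2 was UBE2T, a ubiquitin-conjugating enzyme, at a distance of 0.07, followed by PCGF3 and PLCH2. Those nearest to JUN were LOC100310756, the chromatin reader BRD2 and the nuclear importer TNPO3, at 0.05 to 0.06. INPP5B, RNF187 and KRT8P12 were nearest to JUNB, and GJA3, DRC10 and DUBR nearest to JUND, all within 0.07. FOS and FOSB were not above the floor on all arrays and got no such neighbours.

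Other leucine zipper proteins that pair with FOS or JUN changed in both directions. Of 15 listed, 12 were annotated and 10 measured, and with romidepsin 2 rose and 1 fell, where 14.3% and 9.27% of all genes did (median log2 fold 0.07, against 0.06 over all genes). JDP2, a repressor that pairs with JUN, went from 1107 to 198, 5.58-fold lower, and was at 1117 with tamoxifen and 190 with both drugs. ATF3, a stress-induced partner, rose 3.58-fold from 805 to 2881, and stood at 1848 with both drugs. MAF rose at least 2.01-fold with romidepsin and 2.14-fold more with both drugs over romidepsin, from 134 to 286, and 2 of its 6 probe sets were higher with romidepsin. ATF4, the effector of the integrated stress response, was at 11957 and 8051, 1.49-fold lower. With both drugs over untreated cells the same counts held, 2 higher (ATF3 and MAF) and 1 lower (JDP2).

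Of 15 measured kinases of the pathways upstream of FOS and JUN, 0 rose or fell with romidepsin. Among all genes measured 14.3% rose and 9.27% fell in that comparison. The median log2 fold of the kinases was 0.44 against 0.06 over all genes, and 0.64 against 0.09 with both drugs over untreated cells. RPS6KA3, an RSK kinase, was 1.72-fold higher (395 to 681), MAP3K1 1.61-fold (608 to 978) and the ERK kinase MAPK3 1.51-fold (668 to 1011, and 556 with both drugs), while MAP3K7 was at 1059.65 and 1588. With both drugs over untreated cells 1 of 15 rose, where 19.8% of all genes did: MAPK8, a JUN kinase, from 963 to 1936, which is named because it was the only call. MAPK10, another JUN kinase, was at 75.04 with romidepsin and 152 with both drugs, 2.02-fold higher, close to the floor. The departure from additivity passed 2-fold in 3 of 15, where 0.886% of all genes were above and 2.23% below: MAPK10 lay above (log2 1.02), and MAPK3 (-1.23) and RPS6KA3 (-1.01) lay below.

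Of the factors that act at the FOS and JUN promoters, 1 of 11 rose and 1 fell with romidepsin, where 14.3% and 9.27% of all genes did (median log2 fold 0.11 against 0.06). MEF2C, which acts on the JUN promoter, rose 6.58-fold, from 68.3, close to the floor, to 449. Of the 3 MEF2C probe sets 2 were higher with romidepsin on floored signals. SRF, serum response factor, fell 2.30-fold, from 756 to 329, and was at 420.5 with tamoxifen and 278 with both drugs. SRF was lowest on the arrays where FOS was highest, and a relation between them was not tested. MEF2A was 1.88-fold and CREB1 1.74-fold higher, and all 7 CREB1 probe sets gave the same sign. ELK4 went from 774 with romidepsin to 1203 with both drugs, 1.55-fold higher.

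Other immediate early genes did not move as 1 group. Of 19 measured, 4 rose and 1 fell with romidepsin (median log2 fold 0.44 against 0.06 over all genes), where 14.3% and 9.27% of all genes did. EGR1, a zinc finger factor induced with FOS, rose 14.5-fold, from 256 to 3713, and was at 466 with tamoxifen and 3965 with both drugs. NR4A1 rose at least 12.7-fold, to 846, and CCN2, a matricellular protein, 8.64-fold, from 4220.01 to 36474. KLF6, a Krüppel-like factor, fell 3.27-fold, from 4809 to 1469, and all 5 of its probe sets were lower. With both drugs over untreated cells 7 rose and 2 fell, where 19.8% and 14.4% of all genes did, among them IER3, which was at 9973 with romidepsin and 3931 with both drugs, 2.54-fold lower. IER2 and IER5 were within 1.16-fold of the untreated level with romidepsin.

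Genes that AP-1 is known to regulate went both ways. Of 15 measured, 2 rose and 5 fell with romidepsin, where 14.3% of all genes rose and 9.27% fell (median log2 fold -0.32 against 0.06 over all genes). With both drugs over untreated cells 1 rose and 6 fell, where 19.8% of all genes rose and 14.4% fell (median -0.60 against 0.09). PLAU fell 31.6-fold, from 9337 to 296, and CD44, the hyaluronan receptor, 4.93-fold, from 20786 to 4218, with 9 of its 13 probe sets giving the same sign. EDN1, the endothelin precursor, fell 3.57-fold with romidepsin and 3.02-fold with tamoxifen, from 1980.25 to 555 and 655. CXCL8, the chemokine interleukin 8, rose at least 20.4-fold to 1351. With both drugs CXCL8 was at 348, 3.88-fold lower than with romidepsin, and 4 of 15 genes of the list fell in that comparison while 0 rose, where 2.27% of all genes fell and 4.07% rose. The collagenase MMP1, a classical AP-1 target, lay between 165 and 194 on the 4 arrays.

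Of 10 measured genes that act on the turnover of FOS and JUN RNA and protein, 3 fell and 0 rose with romidepsin, where 9.27% of all genes fell and 14.3% rose (median log2 fold -0.20 against 0.06 over all genes). ZFP36L1, which directs decay of AU-rich messages, was 6.26-fold lower (737 to 118) by its brightest probe set, the only 1 of its 4 that was lower with romidepsin on floored signals. Its relative ZFP36L2 fell 3.98-fold (3643 to 916), while ZFP36 itself was at 7454 and 10082. The SUMO protease SENP1 fell 2.08-fold. FBXW7, the ubiquitin ligase subunit that targets JUN, was at 181 in untreated cells, 319 with romidepsin, 284 with tamoxifen and 626 with both drugs, 1.96-fold higher than with romidepsin.

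**Figure D5:**
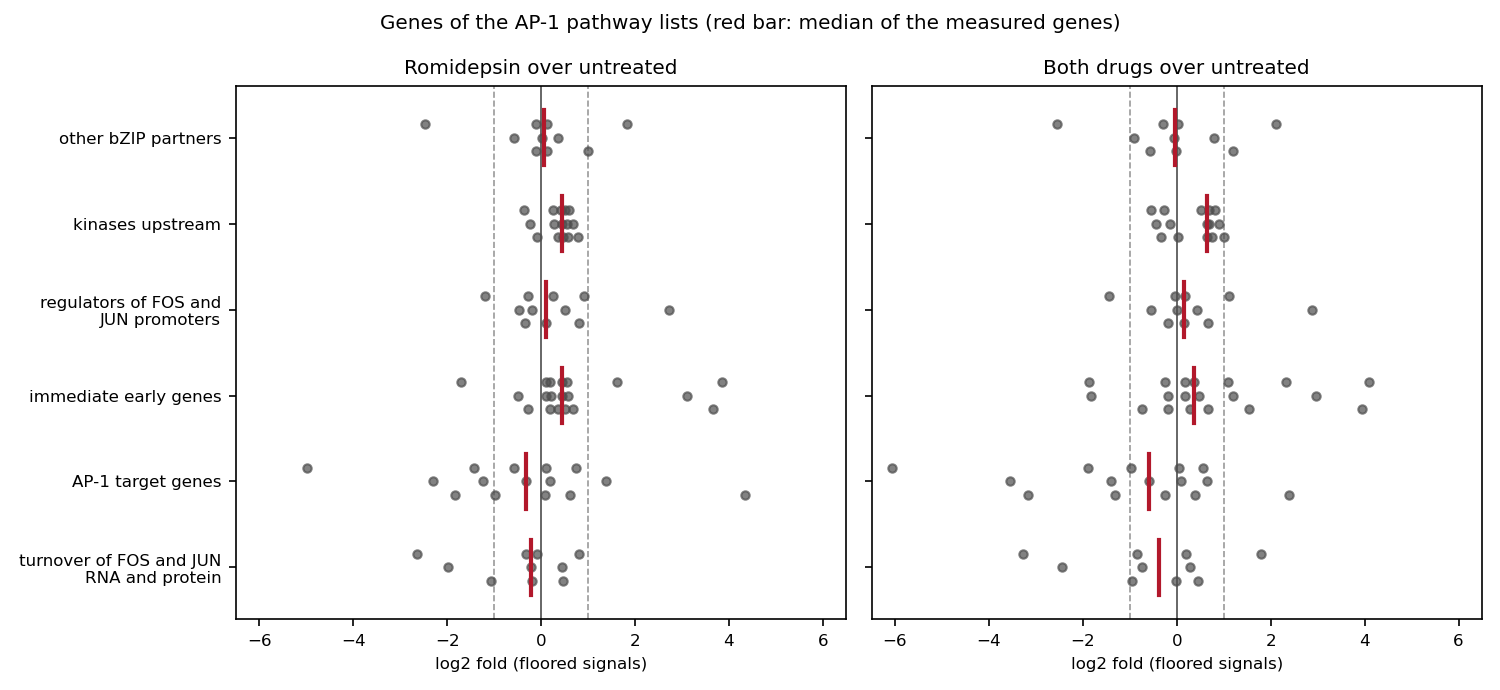
log2 folds of the measured genes of 6 AP-1 pathway lists (grey points, staggered for sight) with romidepsin and with both drugs over untreated cells; red bars are medians and dashed lines 2-fold. The AP-1 target list has its median at -0.32 and -0.60, and the kinases stay inside 2-fold with romidepsin.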

How the data were processed

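Total RNA was labelled and hybridised to 1 array per condition, per the labels' protocols. The authors deposited linear intensities for each probe set, and the submitters' processing notes name MAS5, without a version. MAS5 scales arrays separately, so a shift shared by most genes would not be seen. Probe sets were named from the platform annotation, and of 41097 with 1 gene 41043 were matched by Entrez ID to RefSeq with 0 symbols changed. The brightest probe set by mean log2 over the 4 arrays stood for a gene. Signals were floored at the median of non-control probe sets and differences called at 2-fold. The members and lists were chosen with earlier results of these data known. Of 114 listed genes, 17 had no probe set of their own in that annotation and were not analysed here. Named from each list were the 4 measured genes with the largest difference with romidepsin and the 1 with the largest between both drugs and romidepsin; other genes were named after their values were seen. The alternatives were other floors, scalings, probe sets and call sizes. Promoter matches used RefSeq windows, 1 per gene. Calculations used Python 3.11.15, numpy 2.4.6, pandas 2.3.3 and matplotlib 3.10.9, and were tested on simulated data.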

Additional observations from a re-analysis of the deposited data

How the results depend on the processing

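The calls of FOSL1 (lower) in the romidepsin and both combination comparisons held under all 9 alternatives, with log2 folds between -4.76 and -3.62 for romidepsin over untreated cells. The value of -3.62 is a minimum fall, because the romidepsin signal lay below the floor at the 75th percentile. FOS was called higher in those comparisons under every alternative but the floor at the 75th percentile. There 0 members rose with romidepsin (FOS at a log2 fold of at least 0.56), against 9.1% of all genes measured. FOS kept its call under that floor in both combination comparisons. With the floor at the 25th percentile 2 members rose (FOS and FOSB) in each of the 3 comparisons. Of all genes 17.0% rose with romidepsin, 22.1% with both drugs over untreated cells and 17.1% with both drugs over tamoxifen. A call at 1.5-fold gave 3 higher in each (FOS, FOSB and JUND), where 26.0%, 30.9% and 26.3% of all genes rose, in the same order. It gave 2 lower with romidepsin and 1 lower (FOSL1) with tamoxifen, where 19.3% and 8.82% of all genes fell. With both drugs over untreated cells it gave 3 lower (FOSL1, FOSL2 and JUN), where 24.55% of all genes fell. It was the only alternative that called JUN there. A call at 3-fold left 1 lower (FOSL1) with both drugs over untreated cells and over tamoxifen, where 6.22% and 4.77% of all genes fell. The median over probe sets also left 1 lower (FOSL1) in each, where 13.0% and 10.3% of all genes fell. Arrays centred on their medians gave 2 lower (FOSL1 and FOSL2) with romidepsin, where 12.7% of all genes fell. Scaling to the spike-in controls gave 3 higher and 1 lower with both drugs over untreated cells, where 25.9% and 9.69% of all genes did. Over tamoxifen the spike-in scaling gave 2 higher, where 13.7% of all genes rose. The same scaling moved the median of all genes from 0.09 to 0.34 for both drugs over untreated cells and from 0.01 to 0.33 for tamoxifen. Centring on medians moved these 2 medians to -0.17 and -0.13. No call changed sign. Signals close to the floor limit what can be said of FOSB, of FOS in untreated cells and of 2 FOSL2 probe sets. Leaving out a replicate was not possible with 1 array per condition.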
